A study of Mus musculus with 6 samples.

Results

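The genes described here encode the machinery of MHC class I antigen presentation and the immunoproteasome. They are a list of 10 of the 20076 genes in the deposited table: the heavy chain genes *H2-K1* and *H2-D1*, the light chain gene *B2m*, the peptide transport and loading genes *Tap1*, *Tap2* and *Tapbp*, the regulator *Nlrc5*, and the immunosubunit genes *Psmb8*, *Psmb9* and *Psmb10*. The list was drawn up by gene function, all 10 were found by symbol, and all 10 passed the filter on low values that left 19667 genes for testing. Bulk RNA came from 3 tumors of wild-type (WT) and 3 of *Tgm2* knockout hosts. Both ovarian bursae of the hosts had been injected 6 weeks earlier with the line ID8 Trp53-/- Brca1-/-, mouse ovarian cancer cells that lack both tumor suppressors. The WT mice were C57BL/6, the background strain of the knockout mice is not stated separately in the sources used here, and the mice of both genotypes were young adults. The knockout is in the host only, so the injected cells, which are the same in both groups, can still transcribe *Tgm2*. The tumors are labelled as cancer cells, but whole tumor tissue was taken, and all 11 epithelial and cancer cell markers and all 10 general leukocyte markers, among them *Ptprc* (CD45), were above 0 in all 6 tumors. *Epcam*, an epithelial adhesion gene chosen after its values were seen, ran from 90.5 to 8047 normalized counts among the WT tumors alone, with the highest value in WT tumor 3. *Cdh1* (E-cadherin), chosen likewise, stood at 6588 in that tumor, beside 224 and 920 in the other WT tumors. WT tumor 3 thus stood apart in both genes, and it was also the lowest tumor for most of the class I genes below. The other epithelial and cancer cell markers were mixed. *Krt7* (3666), *Krt18* (9722) and *Msln* (7208) were also highest in WT tumor 3, while *Wt1* (13131), *Upk3b* (2805) and *Lrrn4* (488) were lowest in it. The median log2 deviation of the 11 markers from the mean of the 6 tumors was 0.27 in WT tumor 3 and 0.26 in knockout tumor 1.

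MHC class I molecules carry short peptides from inside the cell to its surface, where CD8 T cells inspect them. Proteasomes cut proteins into peptides, the TAP transporter moves the peptides into the endoplasmic reticulum, and tapasin holds the empty heavy chain and its light chain, beta-2-microglobulin, beside the transporter until a peptide binds. Interferon gamma is known to raise most of these genes, in part through IRF1, and to replace the 3 catalytic subunits of the constitutive proteasome with the immunosubunits; NLRC5 is the transactivator that acts on class I promoters. Leukocytes express the pathway at high levels, so that in bulk tissue fewer cells of a type and less RNA per cell cannot be told apart.

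The promoters of the 3 genes with the highest levels are shown because they carry the shared layout through which these factors are known to act. The sequences are from RefSeq on GRCm38.p6. The first is the 200 bases before the start of *H2-K1* at chr17:34000348-34000547 on the minus strand, and the second the 199 bases before *B2m* at chr2:122147487-122147685 on the plus strand. Capitals mark matches, on either strand, to the NF-kB consensus, to AANNGAAA (the core bound by interferon regulatory factors), to TGACG (the core of the cyclic AMP response element) and to CCAAT (read as ATTGG on the other strand).
H2-K1: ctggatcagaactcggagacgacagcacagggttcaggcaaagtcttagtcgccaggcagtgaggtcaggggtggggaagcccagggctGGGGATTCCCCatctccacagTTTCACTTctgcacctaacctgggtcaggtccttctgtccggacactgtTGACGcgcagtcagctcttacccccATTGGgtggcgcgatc
B2m: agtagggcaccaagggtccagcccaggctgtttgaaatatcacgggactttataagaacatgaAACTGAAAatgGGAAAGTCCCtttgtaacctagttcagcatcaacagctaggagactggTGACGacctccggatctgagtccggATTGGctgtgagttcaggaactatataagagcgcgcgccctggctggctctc

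Both heavy chain genes and *B2m* had TGACG and ATTGG separated by 20 bases. These stretches lie at chr17:34000359-34000388 (minus strand) for *H2-K1*, at chr17:35262993-35263022 (plus strand) for *H2-D1* and at chr2:122147609-122147638 (plus strand) for *B2m*.
H2-K1: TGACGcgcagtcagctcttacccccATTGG
H2-D1: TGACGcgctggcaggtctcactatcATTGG
B2m: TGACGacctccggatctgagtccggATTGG

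The spacing was chosen after these sequences were seen. It occurred in 30 of 32851 RefSeq windows of 250 bases before a gene start (0.0913%), in 3 of the 8 listed genes that had a window, and in 1 of 13 other class I heavy chain genes with a window, *H2-M3*. The 30 bases of *H2-K1* and *H2-D1* printed above differ at 7 positions. Farther from the start, the stretch from the NF-kB match to the interferon regulatory factor core differed at 1 of 29 bases between *H2-K1* (chr17:34000430-34000458, minus strand) and *H2-D1* (chr17:35262923-35262951, plus strand).
H2-K1: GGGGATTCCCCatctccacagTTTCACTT
H2-D1: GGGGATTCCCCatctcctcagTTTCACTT

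Single motifs are common. AANNGAAA was found in 21.3% of all windows, CCAAT in 33.8%, TGACG in 17.8% and the NF-kB consensus in 3.9%. *Tapbp* had 2 matches to CCAAT, and *Psmb8* and *Psmb10* had none of these motifs in their windows. *Psmb9* and *Tap1* are transcribed away from each other on chromosome 17, with 225 bases between their RefSeq starts, and both windows held 1 CCAAT and 1 TGACG from this shared stretch. The gene positions given below are from GENCODE, whose starts differ. There *Psmb9* starts at 34187764 and *Tap1* at 34187553, so that the genes overlap. *H2-D1* starts there at 35262730, so that its stretches printed above lie inside the gene.

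*Tgm2* (chromosome 2, 158116402 to 158146436) was read first as a check of the labels. WT tumors 1 to 3 had 14978, 12155 and 13180 normalized counts, and knockout tumors 1 to 3 had 5853, 6071 and 8157. All 3 knockout tumors lay below all 3 WT tumors, with a log2 fold change of -1.02 (SE 0.22) that did not pass adjustment over all genes (limma, adjusted p = 0.391). Normalized counts are the authors' estimated counts divided by a size factor for each library, and the 6 columns summed to between 32316613 and 37717165. Steps between the low values put the depth at between 33.4M and 36.9M reads per tumor. Fold changes below compare log2(value + 1) of knockout with WT tumors.

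No difference between the genotypes was detectable for any single gene of the pathway at this sample size. None of the 10 genes passed an adjusted p of 0.05 (limma, 0 of 10), none passed an unadjusted p of 0.05, and for none did the 3 knockout tumors lie wholly above or below the 3 WT tumors. Over all genes tested, 0.102% passed an adjusted p of 0.05 with an absolute log2 fold change over 1. At an unadjusted p of 0.05, 3.4% were higher and 2.38% lower in knockout tumors, and in 5.18% and 5.33% the knockout tumors lay wholly above or below. At these shares few or none of 10 genes would be counted, so the counts of 0 do not set the list apart from other genes. All 10 estimates were above 0, with a median log2 fold change of 0.38 beside -0.03 over all genes, of which 47.3% had estimates above 0. Without WT tumor 3 the median of the 10 was 0.12 and *Tapbp* changed sign (-0.09), and with the mean of the leukocyte markers as a covariate the median was -0.15. The order of the tumors recurred from gene to gene: WT tumor 3 had the lowest value of 8 of the 10 genes, knockout tumor 3 was among the 2 highest for 9 and knockout tumor 2 for 7.

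**Figure D1:**
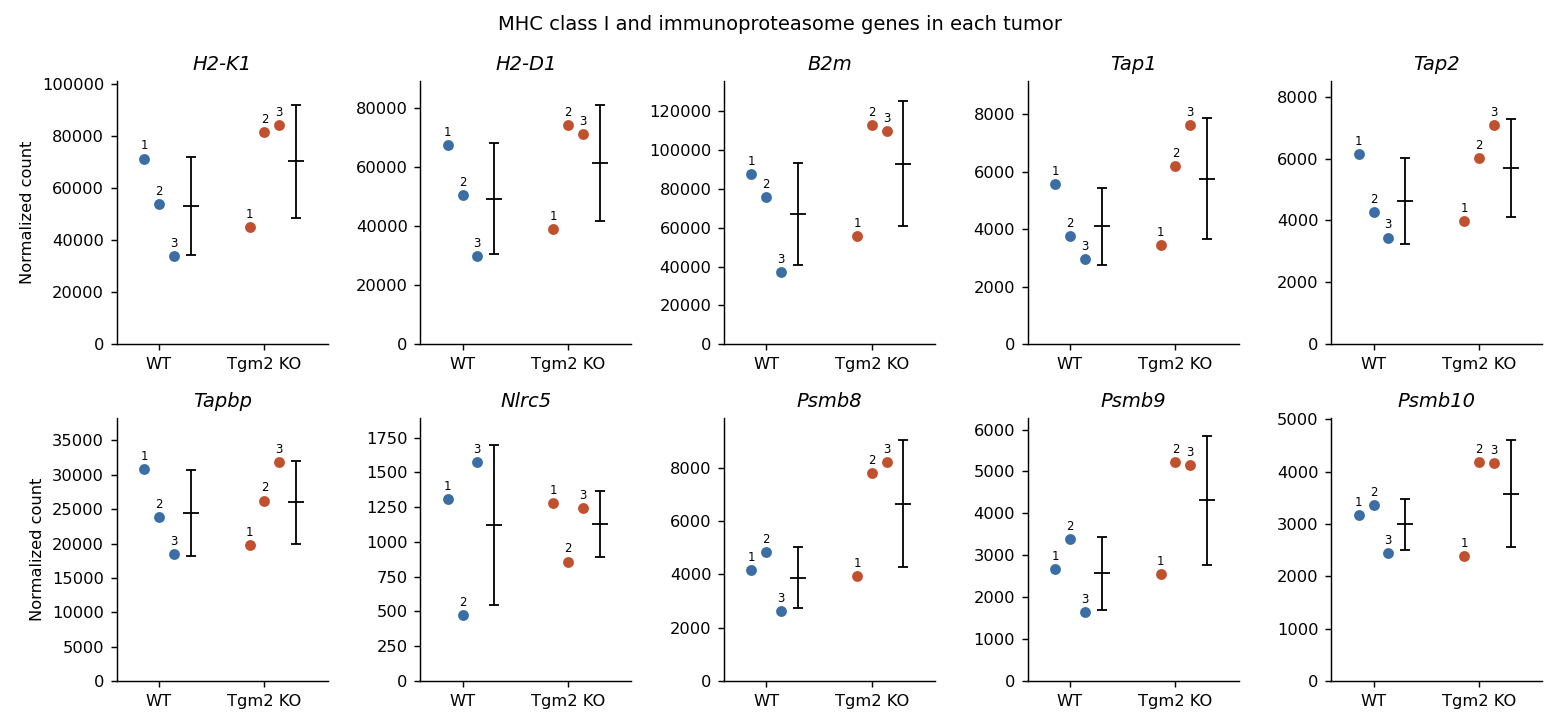
Normalized counts (vertical axes, each from 0) of the 10 class I and immunoproteasome genes in 3 WT and 3 Tgm2 knockout tumors; points are tumors with their replicate number, and bars are the mean and SD. In 8 of the 10 panels WT tumor 3 is the lowest point, and in all 10 the groups overlap.

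The heavy chain gene *H2-K1* (chromosome 17, 33996017 to 34000347) stood at 71261, 53970 and 33938 normalized counts in WT, here and below in the order of replicates 1, 2 and 3, and at 45103, 81256 and 84166 in knockout tumors. Knockout tumors 2 and 3 lay above all WT tumors and knockout tumor 1 below WT tumors 1 and 2. The log2 fold change was 0.41 (SE 0.43, 95% confidence interval -0.56 to 1.39, adjusted p = 0.91). *H2-D1*, the second classical heavy chain gene (chromosome 17, 35262730 to 35267499), had 67481, 50474 and 29771 in WT and 38860, 74212 and 71077 in knockout tumors. The order of the groups was the same as for *H2-K1*, and the log2 fold change was 0.34 (SE 0.43, -0.65 to 1.33, adjusted p = 0.928).

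*B2m*, which encodes the light chain of class I molecules (chromosome 2, 122147686 to 122153083), had 87716, 75661 and 37351 normalized counts in WT tumors and 55787, 112926 and 110009 in knockout tumors. WT tumor 3 was again lowest and knockout tumor 1 next, a 3.02-fold range over the 6 tumors. The log2 fold change was 0.49 (SE 0.48, -0.61 to 1.6, adjusted p = 0.909). The log2 ratio of *H2-K1* to *H2-D1* stayed between 0.08 and 0.24 over the 6 tumors, a far smaller range than that of either gene. These 2 genes share sequence, however: 11.1% of the 31-base words of *H2-K1* transcripts also occur in *H2-D1*, and 13.8% of those of *H2-D1* in *H2-K1*, so that reads can be divided between them. Words shared with any other gene made up 22.8% and 26.9%, and 0% for *B2m*. Together *H2-K1*, *H2-D1* and *B2m* made up 0.651%, 0.51% and 0.298% of all normalized counts in WT and 0.432%, 0.749% and 0.703% in knockout tumors.

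Of the peptide transporter, *Tap1* (chromosome 17, 34187553 to 34197225) had 5579, 3751 and 2951 normalized counts in WT tumors and 3462, 6186 and 7620 in knockout tumors. Knockout tumors 2 and 3 lay above all WT tumors, and knockout tumor 1 lay between WT tumors 2 and 3. The log2 fold change was 0.47 (SE 0.34, -0.32 to 1.25, adjusted p = 0.896). Its partner subunit *Tap2* (chromosome 17, 34203527 to 34216321) had 6152, 4271 and 3448 in WT and 3994, 6002 and 7087 in knockout tumors. WT tumor 1 lay above knockout tumor 2 here, and the log2 fold change was 0.3 (SE 0.29, -0.37 to 0.97, adjusted p = 0.908).

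*Tapbp*, the tapasin gene (chromosome 17, 33915899 to 33929292), had 30899, 23878 and 18514 normalized counts in WT tumors and 19735, 26263 and 31927 in knockout tumors. The tumors of the 2 genotypes alternated, and the log2 fold change was the lowest of the 10, at 0.09 (SE 0.31, -0.61 to 0.8, adjusted p = 0.974). Words shared with other genes made up 26.9% of *Tapbp* and 14.3% of *Tap2* transcripts, mostly with the gene models *Gm19412* and *Gm15821*. The other peptide loading and trimming genes gave 0 of 11 past an adjusted or an unadjusted p of 0.05, with a median log2 fold change of 0.27. Among them *Calr* (calreticulin, a chaperone of the loading complex) had an estimate of 0.55 (SE 0.37), *Pdia3* (its partner ERp57) of 0.24 (SE 0.35) and *Tapbpl* (the peptide editor TAPBPR) of 0.45 (SE 0.22). *Tapbpl* was 1 of 2 genes of this list whose knockout tumors lay wholly above WT tumors.

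The largest estimates of the 10 were those of 2 immunosubunits. *Psmb8*, which encodes the chymotrypsin-like subunit beta5i (chromosome 17, 34197721 to 34201454), had 4159, 4843 and 2617 normalized counts in WT tumors and 3924, 7804 and 8231 in knockout tumors. Knockout tumors 2 and 3 lay well above the WT tumors and knockout tumor 1 lay among them. The log2 fold change was 0.75 (SE 0.34, -0.04 to 1.54, adjusted p = 0.88). *Psmb9*, encoding beta1i (chromosome 17, 34181987 to 34187764), had 2679, 3383 and 1650 in WT and 2542, 5235 and 5155 in knockout tumors, the same arrangement, with a log2 fold change of 0.73 (SE 0.36, -0.08 to 1.55, adjusted p = 0.884).

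*Psmb10*, encoding beta2i and lying apart from the MHC on chromosome 8 (105935735 to 105938444), had 3173, 3364 and 2443 normalized counts in WT tumors and 2391, 4190 and 4157 in knockout tumors. Knockout tumor 1 was the lowest of all 6 and the log2 fold change was 0.23 (SE 0.27, -0.38 to 0.83, adjusted p = 0.919). *Psmb9* and *Psmb8* moved closely together, with a log2 ratio between -0.67 and -0.52 in the 6 tumors. Words shared with other genes made up 13.7% of *Psmb8* transcripts, mostly with the gene model *Gm20496*, 4.79% of *Psmb9*, all with *Tap1*, and none of *Psmb10*. The log2 ratio of *Psmb10* to *Psmb8* was -0.34 ± 0.22 in WT and -0.87 ± 0.14 in knockout tumors (SD, n = 3 tumors per group), without overlap. This ratio was among 14 chosen after the values were seen, of which 2 did not overlap between the groups, and none of the 14 was tested. Among all single genes tested, the knockout tumors lay wholly above in 5.18% and wholly below in 5.33%. Beside such shares, 2 of 14 do not set these ratios apart.

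**Figure D2:**
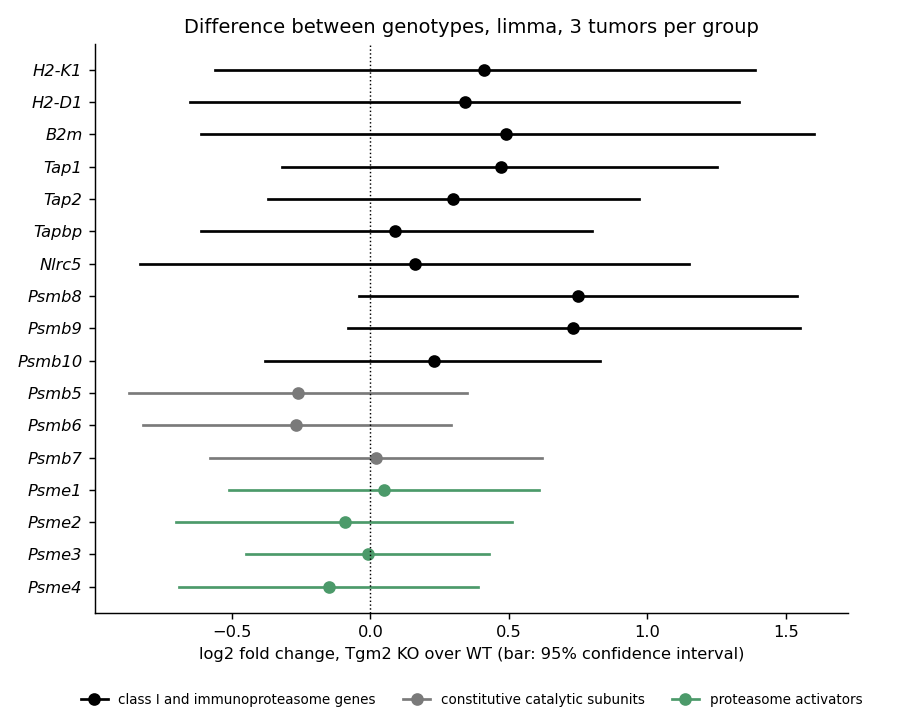
Log2 fold change of Tgm2 knockout over WT tumors (horizontal axis; bars are 95% confidence intervals from limma) for the 10 class I and immunoproteasome genes, the 3 constitutive catalytic subunits and the 4 proteasome activator genes. All intervals include 0, and Psmb8 (0.75) and Psmb9 (0.73) have the highest estimates.

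Each immunosubunit takes the place of 1 constitutive subunit, *Psmb8* that of *Psmb5*, *Psmb9* that of *Psmb6* and *Psmb10* that of *Psmb7*, and a ratio within a tumor does not depend on the scaling of the libraries. The constitutive genes had log2 fold changes of -0.26 (SE 0.27) for *Psmb5*, -0.27 (SE 0.24) for *Psmb6* and 0.02 (SE 0.26) for *Psmb7*. The log2 ratio of *Psmb8* to *Psmb5* took values of -0.06, -0.35 and -0.75 in WT and of 0.32, 0.47 and 1.09 in knockout tumors. The groups did not overlap, since even knockout tumor 1 exceeded the highest WT tumor, with a difference of 1.01 on the log2 scale. In that knockout tumor *Psmb8* itself (3924) lay below WT tumors 1 and 2, and *Psmb5* was the lowest of the 6. *Psmb5* had 4321, 6183 and 4388 normalized counts in WT and 3142, 5651 and 3863 in knockout tumors. The 10 dendritic cell markers, picked from the 21 other lists after the values were seen, ranked the 6 tumors in the order of this ratio. Their median log2 deviations from the mean were 0.03, -0.54 and -0.72 in WT and 0.05, 0.38 and 0.72 in knockout tumors. The T cell markers gave 0.05, -0.55 and -0.76, and 0.02, 0.35 and 0.92. Other lists also did not overlap between the genotypes, among them the B cell markers (-0.13, -0.65 and -0.55, and 0.47, 0.21 and 0.46). So did the plasma cell markers (-0.97, -1.18 and -0.76, and 1.13, 0.64 and 1.52). The part of any of these cell types in the ratio was not tested. For *Psmb8* to *Psmb5* an exact two-sided permutation test gave p = 0.1 (adjusted p = 0.15 over 3 ratios). This is the smallest p that 3 against 3 tumors allow, so that this test cannot reach 0.05 here.

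The log2 ratio of *Psmb9* to *Psmb6* took values of -1.01, -1.3 and -1.79 in WT tumors and of -0.81, -0.31 and 0.01 in knockout tumors. Again the groups did not overlap, and the difference was 1.0 (exact permutation p = 0.1, adjusted p = 0.15). *Psmb6* had 5403, 8316 and 5724 normalized counts in WT and 4471, 6471 and 5115 in knockout tumors, lowest in knockout tumor 1. *Psmb10* to *Psmb7* gave -0.72, -1.19 and -0.84 in WT and -0.94, -0.63 and -0.57 in knockout tumors. These overlapped, with a difference of 0.2 (exact permutation p = 0.4, adjusted p = 0.4). Per kilobase of transcript, *Psmb8* stood at 0.329 to 0.532 times the level of *Psmb5* in WT tumors, and at 0.69, 0.763 and 1.18 times in knockout tumors.

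**Figure D3:**
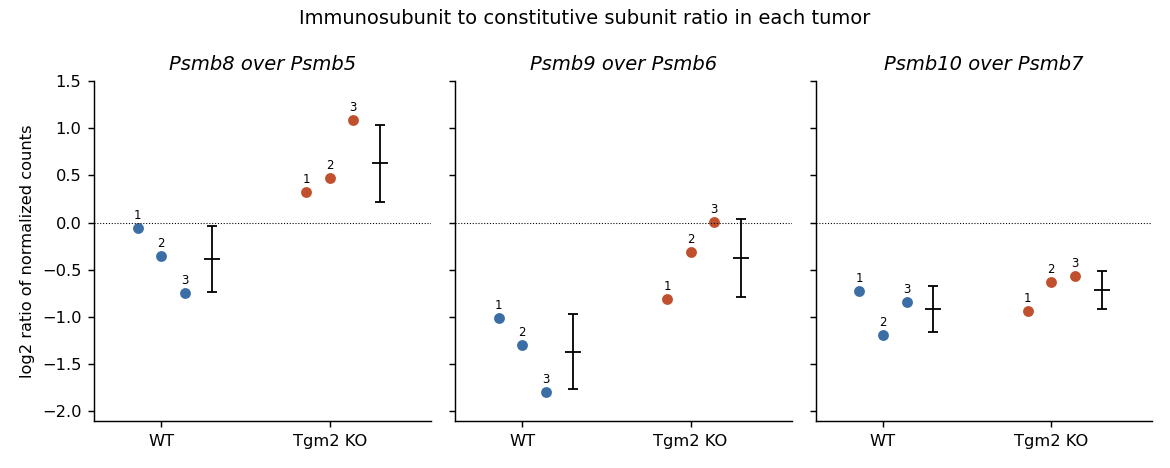
Log2 ratio of normalized counts (vertical axis) of each immunosubunit gene to the constitutive subunit it replaces, in 3 WT and 3 Tgm2 knockout tumors; points are tumors with their replicate number, and bars are the mean and SD. For Psmb8 over Psmb5 and Psmb9 over Psmb6 the knockout points lie above the WT points, and for Psmb10 over Psmb7 the groups overlap.

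The rest of the proteasome had median estimates below 0. The other 20S core and assembly genes gave 0 of 14 past an adjusted or unadjusted p of 0.05, with a median log2 fold change of -0.15. Their most abundant genes were *Psma7* (-0.35, SE 0.33) and *Psmb4* (-0.11, SE 0.26), and *Psma3* had the smallest p (-0.43, SE 0.22). Of the 17 regulatory 19S genes 0 passed an adjusted p and 1 was lower at an unadjusted p of 0.05, with a median of -0.06. The most abundant were *Psmd7* (0.04, SE 0.28) and *Psmd2* (0.28, SE 0.26). The gene that was lower, *Psmc6*, an ATPase of the regulatory particle, had an estimate of -0.54 (SE 0.2, adjusted p = 0.802). The interferon-induced activator genes *Psme1* and *Psme2* had estimates of 0.05 (SE 0.25) and -0.09 (SE 0.26), and 0 of 4 activator genes passed an adjusted or unadjusted p of 0.05, *Psme4* with the smallest p (-0.15, SE 0.24) included.

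*Nlrc5* (chromosome 8, 94434356 to 94527272) did not follow the 9 other genes across the tumors. It had 1311, 476 and 1578 normalized counts in WT tumors and 1282, 859 and 1247 in knockout tumors. WT tumor 3, the lowest for the heavy chains, was the highest for *Nlrc5*, and the 3 knockout tumors lay inside the range of the WT tumors. The log2 fold change was 0.16 (SE 0.43, -0.83 to 1.15, adjusted p = 0.965), and it changed sign without WT tumor 2 (-0.37). Over the 6 tumors, Pearson's r with the mean of all 10 standardized genes was -0.14 for *Nlrc5* and between 0.89 and 0.99 for the 9 others. This is a description over 6 tumors, in which each gene is part of the mean and all share the library size.

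Per kilobase of the longest annotated transcript, *B2m* had the highest mean level over the 6 tumors, at 92917 ± 34760 normalized counts per kilobase (SD, n = 6 tumors). *H2-K1* followed at 38058 ± 12612 and *H2-D1* at 26314 ± 8773, and this order held within each of the 6 tumors. *Tapbp* stood at 8697 ± 1922 and *Psmb8* at 3233 ± 1386. *Psmb9* (2545 ± 1085) and *Psmb10* (2507 ± 601) did not differ beyond their spread, with *Psmb9* higher in 3 of 6 tumors. *Tap1* (1668 ± 619) was above *Tap2* (1499 ± 421) in 5 of 6. *Nlrc5* was lowest, at 149 ± 51.8, and *Tap2* stood 10.1 times higher per kilobase.

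**Figure D4:**
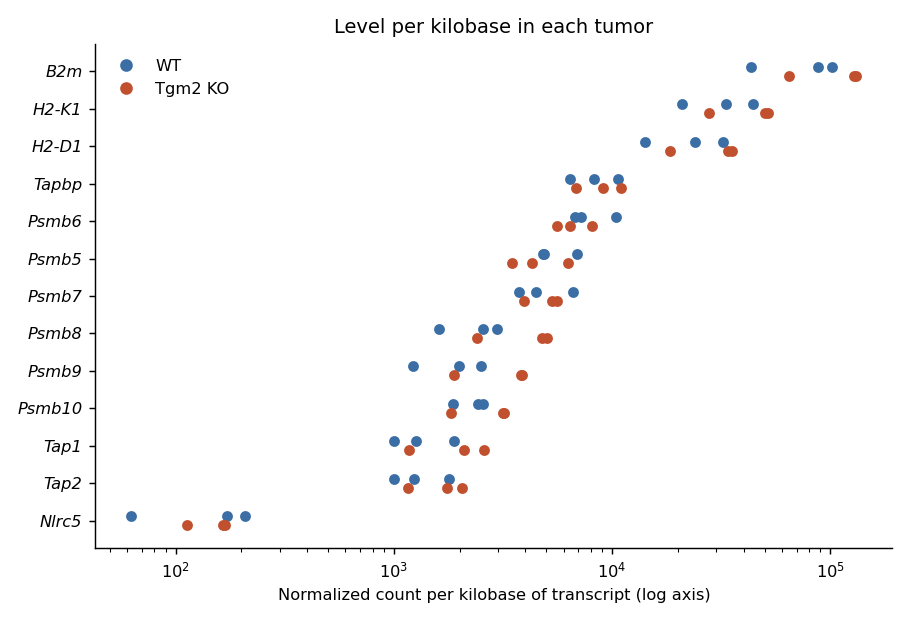
Normalized counts per kilobase of transcript (horizontal log axis) in each of 3 WT and 3 Tgm2 knockout tumors for the 10 class I and immunoproteasome genes and the 3 constitutive subunits, ordered by mean. Psmb8, Psmb9 and Psmb10 lie below Psmb5, Psmb6 and Psmb7 on average, and Nlrc5 lies lowest.

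The other class I heavy chain genes, which include nonclassical genes of the Q, T and M regions and *Cd1d1*, gave 0 of 16 past an adjusted p of 0.05 and 3 higher at an unadjusted p, with 0 lower and a median log2 fold change of 0.19. Their most abundant genes were *H2-T23* (0.18, SE 0.3), which encodes Qa-1, and *H2-T22* (0.06, SE 0.31), a ligand of gamma delta T cells. *Cd1d1*, which presents lipids to NKT cells, had 166, 235 and 329 normalized counts in WT tumors and 424, 733 and 367 in knockout tumors. Every knockout tumor lay above every WT tumor, and the log2 fold change was 1.05 (SE 0.38, adjusted p = 0.795).

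The upstream genes were read from the same fit. Of 15 transcription regulators 0 passed an adjusted p, 2 were higher and 0 lower at an unadjusted p, and the median log2 fold change was 0.16. *Irf1*, the interferon regulatory factor of class I promoters, had an estimate of 0.17 (SE 0.19). *Ciita*, the class II counterpart of NLRC5, had 1793, 1161 and 1019 normalized counts in WT and 2668, 2084 and 4356 in knockout tumors, without overlap (1.17, SE 0.32, adjusted p = 0.644).

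The ligand gene *Ifng* was near the limit of detection, at 3.38, 0.774 and 7.39 normalized counts in WT and 12.7, 10.2 and 12.1 in knockout tumors. The knockout tumors lay above the WT tumors, at levels that rest on a few reads (1.65, SE 0.78, adjusted p = 0.881). Of 6 interferon gamma ligand and signalling genes 0 passed an adjusted or unadjusted p of 0.05; the receptor chain *Ifngr1* had an estimate of 0.13 (SE 0.28) and the kinase *Jak1* of 0.36 (SE 0.24). Of 16 interferon-induced GTPase and chemokine genes 0 passed an adjusted p, 7 were higher and 0 lower at an unadjusted p, and the median was 0.79. The GTPase gene *Iigp1* had 2260, 2011 and 1450 in WT and 3158, 5023 and 6207 in knockout tumors, without overlap (1.3, SE 0.29, adjusted p = 0.433). *Gbp2* (1.12, SE 0.44) and *Irgm1* (0.42, SE 0.27), the most abundant per kilobase, overlapped between the groups.

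The class II presentation genes gave 0 of 8 past an adjusted p, 4 higher and 0 lower at an unadjusted p, and a median log2 fold change of 0.92. The invariant chain gene *Cd74* had an estimate of 1.01 (SE 0.51), *H2-Aa* of 0.86 (SE 0.42) and *H2-Oa* of 1.41 (SE 0.52). The log2 ratio of *H2-K1* to the class II gene *H2-Ab1* was 0.75 ± 0.1 in WT and 0.26 ± 0.17 in knockout tumors, without overlap (SD, n = 3 per group). It is the other of the 2 untested ratios without overlap; *Psmb8* to *H2-Ab1* overlapped, at -3.0 ± 0.22 in WT and -3.16 ± 0.09 in knockout tumors. Among 11 CD8 T cell and NK effector genes 0 passed an adjusted or unadjusted p of 0.05, with a median of 0.89; *Nkg7* (0.89, SE 0.59), *Klrd1* (0.85, SE 0.45) and *Gzma* (1.3, SE 0.57) reached at most 309 normalized counts in any tumor.

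Markers of several other cell types moved with the class I genes from tumor to tumor, but not those of every type. The epithelial and cancer cell markers had median log2 deviations of 0.09, -0.02 and 0.27 in WT and of 0.26, -0.13 and 0.0 in knockout tumors, highest in WT tumor 3. The B cell markers had -0.13, -0.65 and -0.55, and 0.47, 0.21 and 0.46, highest in knockout tumor 1. The 10 general leukocyte markers, none at 0 in any tumor, summed to 36091, 25397 and 21175 normalized counts in WT and to 25583, 43510 and 48686 in knockout tumors. The 10 class I and immunoproteasome genes summed to 280410, 224070 and 134261 in WT tumors and to 177081, 324931 and 330678 in knockout tumors, with the same 2 tumors highest and the same tumor lowest. Of these markers 0 passed an adjusted p and 1 was higher at an unadjusted p (median 0.5), with *Cd52* (1.22, SE 0.31) the most abundant per kilobase and *Laptm5* (0.54, SE 0.34) the next. The log2 ratio of *H2-K1* to *Ptprc*, the CD45 gene, was 4.75 ± 0.28 in WT and 4.7 ± 0.06 in knockout tumors, and that of *Psmb8* to *Ptprc* 0.99 ± 0.36 and 1.28 ± 0.15, both with overlap.

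The 11 macrophage markers, with *Lyz2* most abundant, 0 past an adjusted p and 2 higher at an unadjusted p (median 0.48), summed to 88361, 66479 and 43589 in WT and to 43375, 136443 and 97515 in knockout tumors, a pattern close to that of the class I genes in that WT tumor 3 and knockout tumor 1 were lowest. *Lyz2* had an estimate of 0.22 (SE 0.48), *C1qa*, a complement gene, of 0.48 (SE 0.48) and *Cd163*, a scavenger receptor with the smallest p of the list, of 1.91 (SE 0.48). The 10 white adipocyte markers, with *Cfd* most abundant and none at 0, summed to 40257, 54032 and 30162 in WT and to 43772, 161362 and 93521 in knockout tumors, highest in the same 2 tumors. With their mean as a covariate, added after the data were seen, the median of the 10 genes was -0.52. These markers themselves differed between the genotypes, so that fit cannot fully separate them from genotype. The 8 plasma cell markers, led by *Jchain*, summed to 15741, 17690 and 12873 in WT and to 59558, 82167 and 86368 in knockout tumors; here knockout tumor 1 stood with the other knockout tumors, which it did not for the class I genes. The part of any of these cell types in the class I levels was not tested.

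**Figure D5:**
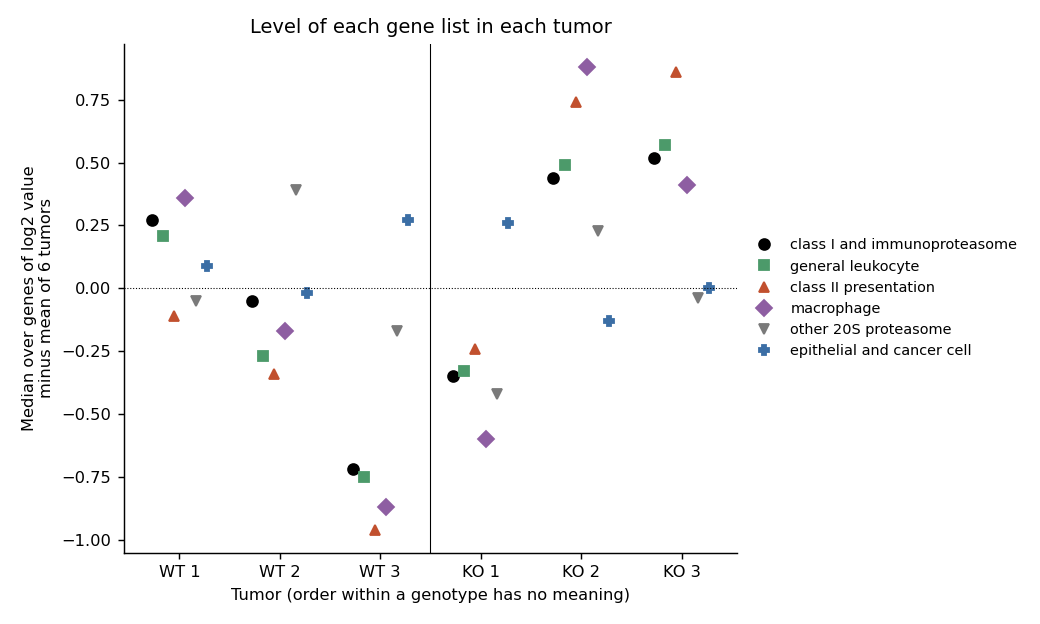
Median over the genes of a list of the log2 value minus the mean of the 6 tumors (vertical axis), for each of 3 WT and 3 Tgm2 knockout tumors; symbols are gene lists. The class I and immunoproteasome genes run from -0.72 in WT tumor 3 to 0.52 in knockout tumor 3, beside -0.75 and 0.57 for the general leukocyte markers, while the other 20S proteasome genes were highest in WT tumor 2.

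Of the remaining marker lists, the 11 T cell markers had 0 past an adjusted p and 1 higher at an unadjusted p (median 0.75). *Trac* (0.73, SE 0.39) and *Trbc2* (0.75, SE 0.38), T cell receptor constant genes, were most abundant, and *Cd3g* (0.94, SE 0.4) had the smallest p. The 10 dendritic cell markers had 0 and 4 (median 0.56), with *Fscn1* (0.6, SE 0.4) and *Itgax* (0.53, SE 0.35) most abundant and *Clec9a*, a receptor of cross-presenting dendritic cells, with the smallest p (2.15, SE 0.4, adjusted p = 0.242). B cell markers had 1 of 10 past an adjusted p, *Cd79a* (3.01, SE 0.34, adjusted p = 0.0264), with *Spib* (-0.67, SE 0.33) next in abundance. Plasma cell markers had 2 of 8, the clearer being *Jchain* (4.8, SE 0.29, adjusted p = 0.000989), with *Xbp1* (0.51, SE 0.23) next in abundance. With the adipocyte covariate 0 genes of the whole table were called, so the calls of *Cd79a* and *Jchain* were lost. Their estimates stayed large, at 2.77 to 3.17 and 4.28 to 5.01 over all alternatives.

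The 11 epithelial and cancer cell markers had 0 past either threshold and a median of -0.24. *Krt19* (-0.4, SE 0.22) and *Krt8* (-0.43, SE 0.26) were most abundant and *Krt18* (-0.51, SE 0.23) had the smallest p. The 10 fibroblast markers had 0 past an adjusted p and 2 higher at an unadjusted p (median 0.42), with *Col3a1* (0.57, SE 0.53) and *Dcn* (0.27, SE 0.29) most abundant and *Lum* (0.82, SE 0.32) with the smallest p. The 10 endothelial markers had 0 and 1 (median 0.44), with *Pecam1* (0.47, SE 0.22) and *Eng* (0.53, SE 0.33) most abundant and *Cdh5* (0.75, SE 0.31) with the smallest p. White adipocyte markers had 9 of 10 higher at an unadjusted p and 1 past an adjusted p, *Lep* (3.74, SE 0.47, adjusted p = 0.0393). The call of *Lep* was also lost with the adipocyte covariate, of which it is a part, and its estimate ranged from 2.82 to 3.96 over the alternatives. Their most abundant genes were *Cfd* (1.65, SE 0.72) and *Fabp4* (1.63, SE 0.54).

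The genes most like the class I genes were sought among all other tested genes by Pearson's r over the 6 tumors with the mean of the 10 standardized log2 values. The highest was *Itgb5* (r = 0.996), an integrin chain, then *Rasa3* and *Mpeg1* (both 0.993), the latter the macrophage gene for perforin-2. *Fmod*, *Cx3cr1*, *Was*, *Lcp1*, *Rhog*, *Plbd1* and *Nckap1l* followed at 0.991 to 0.987. *Mpeg1* had 14483, 10392 and 7165 normalized counts in WT and 8283, 18875 and 19299 in knockout tumors, the order of tumors seen for *Tap1*. With 6 tumors and 19667 genes such values are a description of these libraries.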

How the data were processed

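RNA from 6 tumors, 3 per genotype, was analysed. Per the labels and methods, the authors extracted total RNA, sequenced polyA-enriched libraries, quantified transcripts with kallisto 0.46.2 on GRCm38, summed them to genes, removed genes with low expression and divided by DESeq2 size factors. Each deposited value is a normalized count, treated here as a signal. The table is labelled TPM, but its columns sum to over 32316613, so log2 values were tested without a count model. Between 45.1% and 64.8% of low values were whole multiples of 1 read (tolerance 0.03 reads), too few to rebuild whole reads for every gene; 1 read was worth 0.944 to 1.08 normalized counts.

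R 4.3.3 with limma 3.58.1 (variance trend, two-sided, Benjamini-Hochberg over 19667 genes) was run on log2(value + 1) for genes with at least 1 in at least 3 tumors, with a genotype term only. Subunit ratios were compared with exact permutation tests in Python 3.11.15. The model was tested on simulated data. Positions and lengths are from GENCODE M21 and promoters from RefSeq. The 10 genes, the 21 other lists and the tests were chosen with earlier results of these data known. Genes named are the 10, *Tgm2*, in each other list the 2 most abundant per kilobase and the one with the smallest p, and the 10 with the highest correlation; others were chosen after their values were seen. Values of 1 gene are not reported here. Both bursae were injected and the sources used here do not say whether 2 tumors of a group came from 1 mouse, so p-values measure the spread between these tumors.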

Additional observations from a re-analysis of the deposited data

How the results depend on the processing

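No class I or immunoproteasome gene passed an adjusted p of 0.05 under any of 18 alternatives (limma, lowest adjusted p 0.477), and 19 of 180 single-gene estimates changed sign. The median log2 fold change of the 10 genes kept its sign except with the mean of the leukocyte markers as a covariate (-0.15) and, added after seeing the data, of the white adipocyte markers (-0.52), and ranged from 0.12 to 0.67 with 1 tumor left out. With the leukocyte covariate the estimates that changed sign were *H2-K1* (-0.15), *H2-D1* (-0.26), *B2m* (-0.15), *Tap1* (-0.11), *Tap2* (-0.15), *Tapbp* (-0.29) and *Psmb10* (-0.14), while *Psmb8* and *Psmb9* fell to 0.23 and 0.21 and *Nlrc5* was 0.3. With the adipocyte covariate they were *H2-K1* (-0.54), *H2-D1* (-0.72), *B2m* (-0.76), *Tap1* (-0.35), *Tap2* (-0.28), *Tapbp* (-0.39), *Psmb8* (-0.5), *Psmb9* (-0.62) and *Psmb10* (-0.67), while *Nlrc5* went from 0.16 to 1.48, the estimate with that lowest adjusted p. *Tapbp* also changed sign without WT tumor 3 (-0.09) and without knockout tumor 3 (-0.07), and *Nlrc5* without WT tumor 2 (-0.37); with 1 tumor left out they ranged from -0.09 to 0.28 and from -0.37 to 0.49. The same ranges were 0.12 to 0.71 for *H2-K1*, 0.01 to 0.64 for *H2-D1*, 0.12 to 0.83 for *B2m*, 0.23 to 0.8 for *Tap1*, 0.11 to 0.54 for *Tap2*, 0.49 to 1.1 for *Psmb8*, 0.44 to 1.08 for *Psmb9* and 0.09 to 0.49 for *Psmb10*. The upper end came without knockout tumor 1 for these 8 genes; the lower end came without WT tumor 3 for all but *Tap1* (without knockout tumor 3), and for *Psmb10* also without knockout tumor 2 or 3. At an unadjusted p, *Psmb8* passed with quantile normalization and with equal column sums (1 gene each), and 0 to 3 genes passed with 1 tumor left out: 2 without WT tumor 2, and 3 without knockout tumor 1 (*Tap1*, *Psmb8* and *Psmb9*).

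The count of genes called over the whole table was 20. It was 5 with the replicate block, 4 without the variance trend, 9 with the leukocyte covariate and 0 with the adipocyte covariate, and 2 to 14 with 1 tumor left out. The adipocyte covariate is partly confounded with genotype, so its fit cannot fully separate the 2. Same-numbered tumors did not deviate together (r of -0.196, 0.284 and -0.307), so the replicate block pairs tumors by number alone; under it the ratio differences are 1.01, 1.0 and 0.2 by construction, and the exact sign-flip p of the paired differences was 0.25, 0.25 and 0.5, where 0.25 is the smallest that 3 pairs allow. Left out in turn, single tumors gave 0.78 to 1.17 for *Psmb8* to *Psmb5*, 0.78 to 1.22 for *Psmb9* to *Psmb6* and 0.07 to 0.32 for *Psmb10* to *Psmb7*. With 3 tumors per group, the 95% confidence intervals of the 10 genes span differences well over the estimates, and a p that misses the threshold does not show equal levels. Estimates of named genes outside the 10 also moved under the 18 alternatives. *Lyz2* ranged from -1.59 to 0.76 and *C1qa* from -1.27 to 0.96. *H2-T22*, *Psme1* and *Psmd7* each changed sign under 6 of the 18. Others kept their sign, among them *Ciita* (0.88 to 1.41), *Iigp1* (0.53 to 1.57) and *Cd52* (0.28 to 1.53). The cause of these changes was not tested.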
